A study of Mus musculus with 10 samples.

Results

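The transcripts described here are those of 10 interferon-induced antiviral effectors, Mx1, Mx2, Rsad2, Cmpk2, Bst2, Rtp4, Ifi44, Xaf1, Apol9a and Apol9b, of 54532 genes in the count table. They were chosen by their measured counts, as effectors outside the Oas, Ifit, guanylate-binding and immunity-related GTPase families with large falls between DMM-treated and PBS-treated kidneys in these same libraries. Their levels and fold changes are therefore given as a description, with no p-value, and where they are counted among the genes called across the whole table, the count describes the choice and tests nothing. All 10 were found in the table by name, and all 10 passed the filter on low counts. The kidneys came from male wild-type C57BL/6 mice that were 8 weeks old when the left ureter was ligated (unilateral ureteral obstruction, UUO), and were taken after 14 days. The DMM group received dimethyl malonate, a malonate ester that inhibits succinate dehydrogenase, by intraperitoneal injection at 40 mg/kg every other day, and the control group received PBS. Both groups had UUO, so that the libraries hold no unobstructed kidney. RNA-seq was done on whole kidney tissue of 5 mice per group, and libraries are named by group and replicate.

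Type I and type III interferons bind receptors on the cell surface and activate the kinases Jak1 and Tyk2. A complex that contains Irf9 then binds interferon-stimulated response elements in the promoters of a large set of genes, while type II interferon acts through gamma-activated sites. The products of many of these genes act directly on viruses, and they are also transcribed in injured tissue without infection, the kidney included.

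The total count per library was 18078777, 16457495, 17825223, 18068465 and 16508788 in PBS 1 to 5, and 15797882, 15722527, 17806034, 19475833 and 16794390 in DMM 1 to 5. A library, DMM 4, stood apart from the other 9. It had the highest total count but the fewest genes with a count, 20029, against 22898 to 24083 in the others. The SD across genes of the difference in log2 CPM (CPM, counts relative to a library size scaled by TMM) was 1.09 to 1.16 between DMM 4 and each other library, and 0.367 to 0.827 between all other pairs. DMM 1 was closer to the PBS libraries than to the other libraries labelled DMM. By the same SD across all tested genes, it differed from PBS libraries by 0.367 to 0.555 and from DMM 2, 3, 4 and 5 by 0.581 to 1.11, and its levels of the transcripts described here were also those of PBS libraries. DMM 1 therefore goes against its label in these measures, and the cause was not tested. PBS 3 lay between the groups by the same SD, at 0.457, 0.483, 0.691 and 0.557 from PBS 1, 2, 4 and 5 and at 0.461, 0.532 and 0.517 from DMM 2, 3 and 5. The group means that the authors deposited could be written as weighted sums of counts in which PBS 3 and DMM 1 had a weight of 0. Values are therefore given for all 10 libraries, the number of replicates that the methods state, and also without DMM 1 or for the 8 libraries that lack both PBS 3 and DMM 1.

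Over all 10 libraries, 0 of 16505 tested genes were called lower and 0 higher by edgeR's quasi-likelihood test, for which a call needed an adjusted p under 0.05 with more than a 1.5-fold change, so that 0 of the 10 effectors were called, against a background of 0%. DESeq2 on the same libraries called 36 genes lower and 14 higher among the 15866 to which it gave an adjusted p, and none of the 10 effectors. When p was left unadjusted, with the same thresholds of 0.05 and 1.5-fold, edgeR counted 678 genes as lower (4.11%) and 315 as higher (1.91%), and all 10 effectors were among the former, though only 7 were when DMM 2 or DMM 3 was left out. Every DMM library was below every PBS library in 191 genes (1.16%) and in 0 of the 10 effectors. Without DMM 1, 436 of 16760 tested genes were called lower (2.60%), the 10 effectors among them, and every remaining DMM library was below every PBS library in 6.90% of genes and in all 10 effectors. Over the 8 libraries, 590 of 16550 genes were called lower (3.56%) and 452 higher (2.73%), and again all 10 effectors were called lower. These counts moved to 276 lower and 131 higher without PBS 5, and to 1281 lower and 1129 higher without DMM 4. With the replicate number as a block over the 8 libraries, 0 genes and 0 effectors were called, though the median log2 fold change of the effectors was -3.01. The smallest adjusted p by edgeR was then 0.0514. Deviations from the group means correlated at only -0.223 to 0.341 between libraries of the same number, so that the number is not a known pairing. Groups did not overlap, with DMM below PBS, in 10.6% of genes over the 8 libraries. Since the effectors were chosen by this contrast, these counts describe the choice. DMM 1 is also the library with PBS-like levels of these same effectors, so that their separation without it, or over the 8 libraries, follows in part from leaving it out. The median log2 fold change of the effectors, DMM against PBS, was -1.80 over 10 libraries, -2.94 without DMM 1 and -2.99 over the 8 libraries, and that of all tested genes was 0.02 each time.

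**Figure D1:**
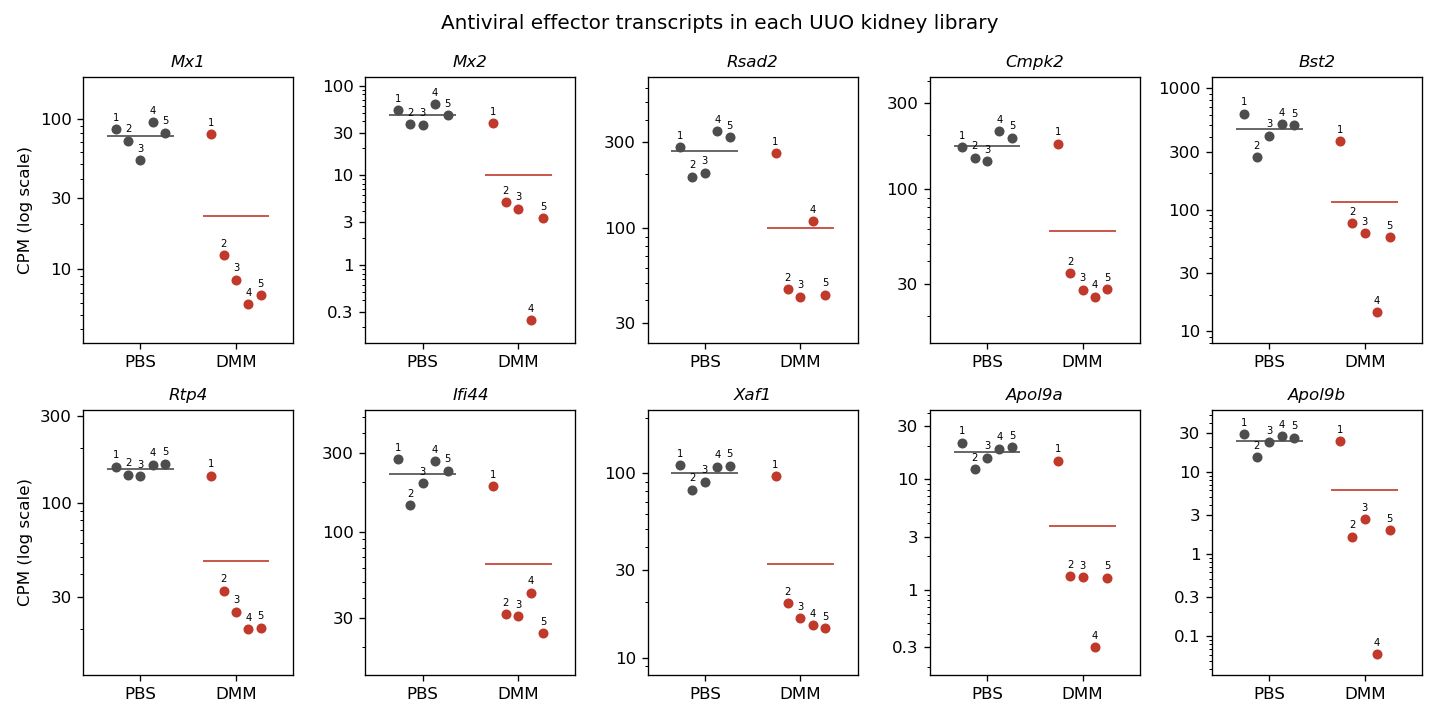
CPM of each of the 10 effectors (log axis, a range of its own per gene) in the 5 PBS (grey) and 5 DMM (red) libraries, with points numbered by replicate and a line at the arithmetic mean of each group. In every gene DMM 1 lies within the PBS range and DMM 2, 3, 4 and 5 lie below all PBS libraries.

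Mx1 and Mx2 encode dynamin-like GTPases that block viral replication in the nucleus and in the cytoplasm, respectively. In C57BL/6 mice, as in most laboratory strains, both genes carry mutations that abolish the intact protein, so that their transcripts report transcription and not an antiviral protein. Mx1 was at 85.7, 71.7, 53.1, 94.9 and 81.1 CPM in PBS 1 to 5, and at 78.8, 12.5, 8.56, 5.86 and 6.75 CPM in DMM 1 to 5. Mx2 was at 53.4, 37.5, 36.7, 62.7 and 46.9 CPM in PBS 1 to 5, and at 38.1, 4.98, 4.25, 0.242 and 3.34 CPM in DMM 1 to 5. In both genes PBS 4 was the highest and PBS 3 the lowest PBS library, DMM 1 fell inside the PBS range, and the other 4 DMM libraries lay below it. Mean Mx1 was 77.3 ± 15.9 CPM (SD, n = 5) in PBS and 22.5 ± 31.6 CPM (SD, n = 5) in DMM kidneys, with a log2 fold change of -1.78 ± 0.68 (SE), or -3.20 ± 0.26 without DMM 1. Mean Mx2 was 47.4 ± 11 CPM in PBS and 10.2 ± 15.7 CPM in DMM kidneys (SD, n = 5 each), which gave a log2 fold change of -2.22 ± 0.84 (SE), or -3.89 ± 0.56 without DMM 1. The SD of the DMM group exceeded its mean in both genes. Mx2 had 4 counts in DMM 4, against 55 to 79 in DMM 2, 3 and 5.

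Rsad2 encodes viperin, a radical SAM enzyme that makes a chain-terminating nucleotide from CTP, and Cmpk2 encodes a mitochondrial nucleotide kinase that phosphorylates CMP and UMP. Rsad2 was at 283, 194, 204, 346 and 320 CPM in PBS 1 to 5, and at 262, 46.1, 41.8, 110 and 42.9 CPM in DMM 1 to 5. Cmpk2 was at 172, 150, 143, 210 and 194 CPM in PBS 1 to 5, and at 179, 34.2, 27.8, 25.4 and 28 CPM in DMM 1 to 5. DMM 1 was within the PBS range for both. DMM 4 differed between the neighbouring genes, as it was above DMM 2, 3 and 5 for Rsad2 and below them for Cmpk2. Mean Rsad2 was 269 ± 68.1 CPM in PBS and 100 ± 94.5 CPM in DMM kidneys (SD, n = 5 each), which gave a log2 fold change of -1.42 ± 0.50 (SE), or -2.16 ± 0.33 without DMM 1. Mean Cmpk2 was 174 ± 28.4 CPM in PBS and 59 ± 67.5 CPM in DMM kidneys (SD, n = 5 each), which gave a log2 fold change of -1.56 ± 0.54 (SE), or -2.59 ± 0.16 without DMM 1. Rsad2 had the smallest fold change of the 10 effectors with or without DMM 1, but not without DMM 4, when it was -1.46 for Rsad2, -1.44 for Xaf1 and -1.37 for Cmpk2.

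Bst2 encodes tetherin, a membrane protein that holds budding virions at the cell surface. It was at 619, 270, 408, 504 and 499 CPM in PBS 1 to 5, and at 365, 77.7, 63.8, 14.4 and 59.3 CPM in DMM 1 to 5. PBS 2 was the lowest PBS library, below DMM 1, and DMM 4 was the lowest of all. The mean was 460 ± 130 CPM in PBS and 116 ± 141 CPM in DMM kidneys (SD, n = 5 each), with a log2 fold change of -1.99 ± 0.67 (SE), or -3.10 ± 0.45 without DMM 1. Bst2 varied more among PBS kidneys than any other effector, with 2.29 times as much in the highest library as in the lowest.

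Rtp4 belongs to a family of chaperones that carry receptors to the cell surface, and it is strongly induced by interferon. It was at 158, 143, 140, 162 and 164 CPM in PBS 1 to 5, and at 141, 32.5, 24.8, 19.8 and 20.2 CPM in DMM 1 to 5. Rtp4 was the steadiest effector among PBS kidneys, with a highest library 1.17 times the lowest, and DMM 1 sat at the lower end of that narrow range. The mean was 153 ± 11 CPM in PBS and 47.6 ± 52.2 CPM in DMM kidneys (SD, n = 5 each), with a log2 fold change of -1.69 ± 0.52 (SE), or -2.66 ± 0.17 without DMM 1. The deposited Rtp4 model overlaps Masp1 on the opposite strand, which had a mean of 24 CPM in PBS and 23 CPM in DMM kidneys. Whether counting took the strand into account is not given in the sources used here, so that reads of these genes cannot be told apart with certainty.

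Ifi44 is an interferon-induced cytoplasmic protein with a GTP-binding motif, and Xaf1 encodes a zinc finger protein that binds and antagonizes the apoptosis inhibitor Xiap. Ifi44 was at 276, 145, 197, 269 and 235 CPM in PBS 1 to 5, and at 190, 31.8, 30.8, 42.8 and 24.3 CPM in DMM 1 to 5. Xaf1 was at 111, 81.5, 90.1, 109 and 110 CPM in PBS 1 to 5, and at 96.7, 19.9, 16.5, 15.1 and 14.5 CPM in DMM 1 to 5. PBS 2 was the lowest PBS library for both, DMM 1 was above it, and the other DMM libraries were below every PBS library. Mean Ifi44 was 224 ± 54.4 CPM in PBS and 63.8 ± 70.6 CPM in DMM kidneys (SD, n = 5 each), which gave a log2 fold change of -1.81 ± 0.55 (SE), or -2.79 ± 0.24 without DMM 1. Mean Xaf1 was 100 ± 13.6 CPM in PBS and 32.5 ± 35.9 CPM in DMM kidneys (SD, n = 5 each), which gave a log2 fold change of -1.62 ± 0.52 (SE), or -2.60 ± 0.15 without DMM 1. Xiap itself, the partner of Xaf1, was at 145 CPM on average in PBS and 190 CPM in DMM kidneys, and was not called (log2 fold change 0.39 ± 0.22 SE, adjusted p = 0.524, edgeR). Its DMM mean rested on DMM 4 at 331 CPM, as DMM 1, 2, 3 and 5 were at 153, 145, 157 and 161 CPM, and without DMM 4 its log2 fold change was 0.09 ± 0.05 (SE).

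Apol9a and Apol9b belong to the apolipoprotein L family and are close copies of each other. Of the 50-base words in the annotated transcripts of Apol9b, 52.3% also occur in those of Apol9a, and 16.5% of the words of Apol9a occur in Apol9b. Since the handling of reads that match both is not given in the sources used here, the split of counts between them is uncertain. Apol9a was at 21.3, 12.3, 15.6, 18.9 and 19.4 CPM in PBS 1 to 5, and at 14.7, 1.32, 1.3, 0.302 and 1.28 CPM in DMM 1 to 5. Apol9b was at 28.9, 15.2, 23.2, 27.3 and 26.2 CPM in PBS 1 to 5, and at 23.6, 1.64, 2.66, 0.0604 and 1.95 CPM in DMM 1 to 5. Both were highest in PBS 1, lowest among PBS libraries in PBS 2, inside the PBS range in DMM 1 and lowest of all in DMM 4. Mean Apol9a was 17.5 ± 3.57 CPM in PBS and 3.78 ± 6.11 CPM in DMM kidneys (SD, n = 5 each), which gave a log2 fold change of -2.21 ± 0.79 (SE), or -4.05 ± 0.37 without DMM 1. Mean Apol9b was 24.2 ± 5.44 CPM in PBS and 5.98 ± 9.88 CPM in DMM kidneys (SD, n = 5 each), which gave a log2 fold change of -2.02 ± 0.89 (SE), or -3.93 ± 0.57 without DMM 1. Apol9a and Apol9b had 5 counts and 1 count in DMM 4. The exact Poisson 95% interval of that single count, 0.0253 to 5.57, covers counting error only.

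Levels of different genes were compared as deposited FPKM, which accounts for gene length. In PBS kidneys the order was Bst2 at 505 ± 143 FPKM, Rtp4 at 71.4 ± 5.23, Rsad2 at 61.6 ± 15.7, Cmpk2 at 41.4 ± 6.86, Ifi44 at 36.3 ± 8.84, Xaf1 at 21.2 ± 2.91, Mx1 at 20.3 ± 4.19, Apol9b at 13.2 ± 2.97, Mx2 at 13 ± 3.03 and Apol9a at 2.92 ± 0.597 FPKM (SD, n = 5). Bst2, the shortest of these genes at 903 bp, was above all others in every PBS library (lowest value 296 FPKM), and Apol9a was below all others (highest value 3.55 FPKM). Between these ends, neighbours in the order overlapped across PBS libraries, and Ifi44 and Xaf1 overlapped only at 23.4 FPKM. In DMM 2, 3, 4 and 5 the means were 59.2 ± 30.2 FPKM for Bst2, 13.8 ± 7.53 for Rsad2, 11.3 ± 2.76 for Rtp4, 6.88 ± 0.9 for Cmpk2, 5.25 ± 1.22 for Ifi44, 3.5 ± 0.506 for Xaf1, 2.21 ± 0.779 for Mx1, 0.881 ± 0.574 for Mx2, 0.861 ± 0.601 for Apol9b and 0.176 ± 0.0837 FPKM for Apol9a (SD, n = 4). Rsad2 with Rtp4 and Mx2 with Apol9b thus exchanged places between adjoining ranks, in each case within the spread between libraries. DMM 1 had 403 FPKM of Bst2, 65.7 of Rtp4 and 60.1 of Rsad2, the same leading order as in PBS kidneys.

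The PBS libraries varied together across the effectors. PBS 2 was the lowest PBS library for 6 of the 10 genes and PBS 3 for the other 4, while PBS 1 was the highest for 5, PBS 4 for 4 and PBS 5 for 1. Relative to the PBS mean of each gene, the mean log2 level over the 10 genes was 0.21, -0.38, -0.22, 0.25 and 0.14 in PBS 1 to 5 and -0.10, -2.78, -2.93, -4.01 and -3.13 in DMM 1 to 5. DMM 1 had 79.3% (Bst2) to 103% (Cmpk2) of the PBS mean, with a median of 94.1%. PBS 3, which has no weight in the deposited means, was inside the range of the other 4 PBS libraries for 6 of the 10 genes and the lowest for the rest.

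DMM 4 was low for most but not all effectors. Its level as a percentage of the mean of DMM 2, 3 and 5 was 252% for Rsad2, 148% for Ifi44, 89% for Xaf1, 84.6% for Cmpk2, 76.7% for Rtp4, 63.1% for Mx1, 23.2% for Apol9a, 21.5% for Bst2 and 5.77% for Mx2. For Apol9b, with its single count, it was 2.9% with a counting interval of 0.0734% to 16.2%. Thus 4 effectors were under 25% and 1 was above 200%, while among all 16505 tested genes 6.39% were under 25% and 12.8% above 200%. DMM 2, 3 and 5 were also each set against the mean of the other libraries of these 3. Of tested genes with counts on each side, 0.352%, 0.418% and 0.212% were under 25%. Genes without a count in the library were left out of these shares but counted as under 25% for DMM 4. The shares therefore do not follow the same rule as the 6.39% of DMM 4. Across 16135 tested genes in these libraries, the ratio in DMM 4 had a Spearman rho of -0.48 with the GC content of the longest transcript and 0.43 with gene length, given as a description since genes are not independent replicates. The longest transcripts had 40.4% GC in Ifi44, 44.3% in Rsad2, 45.8% in Cmpk2, 47.3% in Mx1, 47.4% in Xaf1, 49% in Rtp4, 49.6% in Apol9a, 51.1% in Mx2, 55.1% in Apol9b and 55.3% in Bst2, beside a median of 49.6% over tested genes. The part of base composition, length and RNA quality in the values of DMM 4 was not tested. Without DMM 4 and with DMM 1 kept, the log2 fold change of the 10 effectors ran from -1.92 for Apol9a and -1.91 for Mx2 to -1.37 for Cmpk2.

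The effectors lie on 6 chromosomes, and 6 of the 10 form 3 pairs of related or adjoining genes. In the deposited mm10 positions, Rsad2 (chr12:26442746-26456452, minus strand) and Cmpk2 (chr12:26469204-26479837, plus strand) point away from each other with 12751 bases between them. Mx1 (chr16:97447035-97462907, minus strand) and Mx2 (chr16:97535308-97560900, plus strand) also diverge, with 72400 bases between them, and Apol9a (chr15:77403789-77411135, minus strand) and Apol9b (chr15:77729039-77736382, plus strand) are 317903 bases apart. The others are Rtp4 (chr16:23520291-23614222, plus strand), Bst2 (chr8:71534255-71537456, minus strand), Ifi44 (chr3:151730922-151749960, minus strand) and Xaf1 (chr11:72301629-72313733, plus strand). The deposited table lists Mx2 as a polymorphic pseudogene and the other 9 as protein-coding.

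Position was not used to choose the effectors, so their neighbours could be tested. The 2 nearest tested genes on each side came to 32 genes, of which 0 were called in either direction by edgeR over 10 libraries, while 2 (Apol10b and Tmem221) were lower and 1 (Ptgfr) was higher at an unadjusted p by the same thresholds, beside 4.11% and 1.91% of all tested genes. Their median log2 fold change was 0.01, close to that of all tested genes. Ptgfr, the prostaglandin F receptor gene beside Ifi44, was at 11.3, 13.7, 20.2, 8.3 and 15.6 CPM in PBS 1 to 5 and at 21.2, 26, 48.1, 57.6 and 38.1 CPM in DMM 1 to 5. Every DMM library of Ptgfr was above every PBS library, opposite to the direction of Ifi44. The margin was narrow, with DMM 1 at 21.2 CPM and PBS 3 at 20.2 CPM. The share of all tested genes with this order was not counted. Ptgfr was the gene of smallest p among the 32 neighbours. Its log2 fold change was 1.47 ± 0.31 (SE; adjusted p = 0.378 by edgeR over 10 libraries and 0.00809 over the 8 libraries), and DESeq2 called it over 10 libraries. Apol10b, a relative that lies between Apol9a and Apol9b, had a mean of 3.46 ± 0.845 CPM in PBS and 1.57 ± 1.22 CPM in DMM kidneys (SD, n = 5 each). Its log2 fold change was -1.14 ± 0.44 (SE; adjusted p = 0.408 by edgeR over 10 libraries and 0.0308 over the 8). Tmem221 and Mvb12a, both near Bst2, had log2 fold changes of -0.60 ± 0.25 and -0.37 ± 0.15 (SE; adjusted p = 0.43 and 0.419, edgeR), the latter below 1.5-fold.

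Promoter sequences of RefSeq (GRCm38.p6), from 250 bases before to 50 bases after the gene start, were matched for 7 of the 10 effectors, namely Rsad2, Cmpk2, Bst2, Ifi44, Xaf1, Apol9a and Apol9b. The core of the interferon-stimulated response element was searched on both strands as GAAA, 2 bases of any kind and GAAA. It was present in 4 of the 7, Rsad2, Bst2, Apol9a and Apol9b, and in 3.44% of 32851 promoters. The gamma-activated site, searched as TTCNNNGAA, was present in Bst2 alone among the 7 and in 8.3% of all promoters. The TATA box, searched as TATAAA, was present in Rsad2 alone and in 13.6% of all promoters. The stretches with the response element core are shown because these genes have low values in the same DMM libraries, with the bases that match the core, on either strand, in capitals. They are read 5′ to 3′ on the strand of the gene, from chr12:26456538-26456607 (minus strand), chr8:71537562-71537637 (minus strand), chr15:77411124-77411174 (minus strand) and chr15:77729000-77729050 (plus strand).
Rsad2: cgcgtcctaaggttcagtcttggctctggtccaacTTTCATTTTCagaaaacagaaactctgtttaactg
Bst2: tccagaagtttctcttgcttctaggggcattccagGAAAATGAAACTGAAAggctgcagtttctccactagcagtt
Apol9a: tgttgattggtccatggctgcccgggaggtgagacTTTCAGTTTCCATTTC
Apol9b: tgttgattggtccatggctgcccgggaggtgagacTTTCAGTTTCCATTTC

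Bst2, Apol9a and Apol9b each held 2 overlapping copies of the core and Rsad2 held 1. The first matching base lay 120 bases before the RefSeq start of Rsad2, 130 before that of Bst2, 59 before that of Apol9a and 37 before that of Apol9b. The deposited starts of Apol9a and Apol9b lie 55 and 33 bases upstream of the RefSeq starts, within the stretch in capitals. The Apol9a and Apol9b promoters shared an identical run of 278 bases, so that they are not separate examples. A match of these letters is a description of the sequence and not a measurement of binding.

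The pathway upstream of the effectors was examined from the ligands down. None of the 21 interferon ligand genes passed the filter on low counts. Ifng had 4, 6, 7, 6 and 7 counts in PBS 1 to 5 and 5, 4, 3, 0 and 0 in DMM 1 to 5, and Ifnz, Ifnk and Ifna7 had at most 5 counts in any library. The other 17 ligands, Ifnb1 among them, had 0 counts in all 10 libraries, which allows a level of up to 0.159 CPM (PBS 1) to 0.189 CPM (DMM 2) in a library, the value of 3 counts. Ligand transcripts were thus not detectable at this depth, or nearly so, in kidneys with or without DMM.

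All 6 interferon receptor genes were tested and 0 were called, over 10 or over 8 libraries, and 0 passed the same thresholds without adjustment. Ifnar2, a chain of the type I receptor, was at 54.3, 60.2, 54.3, 63 and 54.2 CPM in PBS 1 to 5 and at 53.6, 47.1, 41.1, 35.5 and 43.4 CPM in DMM 1 to 5. Every DMM library was below every PBS library, DMM 1 by the smallest margin, with a log2 fold change of -0.37 ± 0.12 (SE; adjusted p = 0.385, edgeR). Over the 8 libraries the log2 fold change was -0.47 with an adjusted p of 0.0489 by edgeR, and it was not called because the change was below 1.5-fold. Ifnar1, the other chain, had a mean of 140 CPM in PBS and 149 CPM in DMM kidneys (log2 fold change 0.10 ± 0.18 SE, adjusted p = 0.835, edgeR). The log2 fold changes of the type II receptor genes were -0.16 ± 0.16 for Ifngr1 and 0.04 ± 0.18 for Ifngr2 (SE), and those of the type III receptor genes were -0.09 ± 0.21 for Ifnlr1 and -0.14 ± 0.12 for Il10rb (SE).

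Of 11 receptor kinase, STAT and IRF genes, 0 were called over 10 libraries. At an unadjusted p 6 were lower, beside 4.11% of all tested genes, and 7 were called lower over the 8 libraries, beside 3.56%. Irf7, a factor that amplifies the interferon response and is itself induced by it, was at 952, 352, 692, 716 and 780 CPM in PBS 1 to 5 and at 488, 80.1, 64.8, 30.4 and 54 CPM in DMM 1 to 5. PBS 2 was the lowest PBS library, as in 6 of the 10 effectors, and DMM 1 was within the PBS range, as in all 10. Its log2 fold change was -2.28 ± 0.70 (SE; adjusted p = 0.378 by edgeR over 10 libraries and 0.00119 over the 8). Irf1 and Irf9, which carry the type II and type I responses, had log2 fold changes of -1.06 ± 0.30 and -0.92 ± 0.28 (SE). Their adjusted p by edgeR was 0.378 for each over 10 libraries, and 0.0115 and 0.00136 over the 8.

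Among 6 brakes on interferon signalling, 0 were called over 10 libraries. At an unadjusted p 3 were lower, beside 4.11% of all tested genes, and 3 were called lower over the 8 libraries, beside 3.56%. Usp18, which removes ISG15 from proteins and blocks Ifnar2, had a mean of 108 ± 25 CPM in PBS and 29.7 ± 42.3 CPM in DMM kidneys (SD, n = 5 each). Its log2 fold change was -1.86 ± 0.69 (SE; adjusted p = 0.394 by edgeR over 10 libraries and 0.000108 over the 8). The log2 fold changes of the suppressor Socs1 and of the phosphatase Ptpn6 were -1.51 ± 0.66 and -0.59 ± 0.18 (SE; adjusted p = 0.44 and 0.378, edgeR over 10 libraries).

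Of 14 nucleic acid sensors and adaptors tested, 0 were called over 10 libraries. At an unadjusted p 8 were lower, beside 4.11% of all tested genes, and 9 were called lower over the 8 libraries, beside 3.56%. The 3 genes of smallest p were Mb21d1, which encodes the DNA sensor cGAS, with a log2 fold change of -0.98 ± 0.30 (SE), Tmem173, which encodes its adaptor STING, with -0.46 ± 0.15, and the kinase gene Ikbke with -0.69 ± 0.22. DMM 1 lay inside the PBS range in all 14.

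Other antiviral effectors and the large interferon-induced families were counted in the same way. Of 26 other effectors tested, 0 were called over 10 libraries. At an unadjusted p 23 were lower, beside 4.11% of all tested genes, and 22 were called lower over the 8 libraries, beside 3.56%. Apobec3, a cytidine deaminase that mutates retroviral DNA, had 95.8 ± 6.01 CPM in PBS and 57.3 ± 14.4 CPM in DMM kidneys (SD, n = 5 each), with a log2 fold change of -0.74 ± 0.15 (SE; adjusted p = 0.378, edgeR). Unlike the 10 effectors, Apobec3 did not overlap between groups over all 10 libraries, as DMM 1 at 82.1 CPM was below the lowest PBS value of 86.5 CPM. The secreted glycoprotein gene Lgals3bp and the RNA helicase gene Mov10 had log2 fold changes of -1.60 ± 0.41 and -0.97 ± 0.27 (SE; adjusted p = 0.378 each, edgeR). Of 29 Oas, Ifit and GTPase family genes, 0 were called over 10 libraries, 28 were lower at an unadjusted p, and 27 were called lower over the 8 libraries, with log2 fold changes over 10 libraries of -1.36 ± 0.36 for Gbp2, -1.49 ± 0.42 for Irgm2 and -1.53 ± 0.43 for Irgm1 (SE; adjusted p = 0.378 each, edgeR). DESeq2 over 10 libraries called Gbp2, Apobec3 and Lgals3bp lower and no other gene of these pathway lists. The median log2 fold change over 10 libraries was -0.11 for the receptors, -0.34 for the brakes, -0.67 for the sensors, -0.74 for the kinases, STATs and IRFs, -1.01 for the other effectors and -1.67 for the families, beside 0.02 for all tested genes. These lists were written with earlier results of these data known, so that their direction is not independent evidence. DMM 1 was inside the PBS range in 9 of the 11 kinases, STATs and IRFs, 4 of the 6 brakes and all 14 sensors. It was also inside that range in 24 of the 26 other effectors and 27 of the 29 family genes. The calls of these lists over the 8 libraries therefore follow in part from leaving DMM 1 out.

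**Figure D2:**
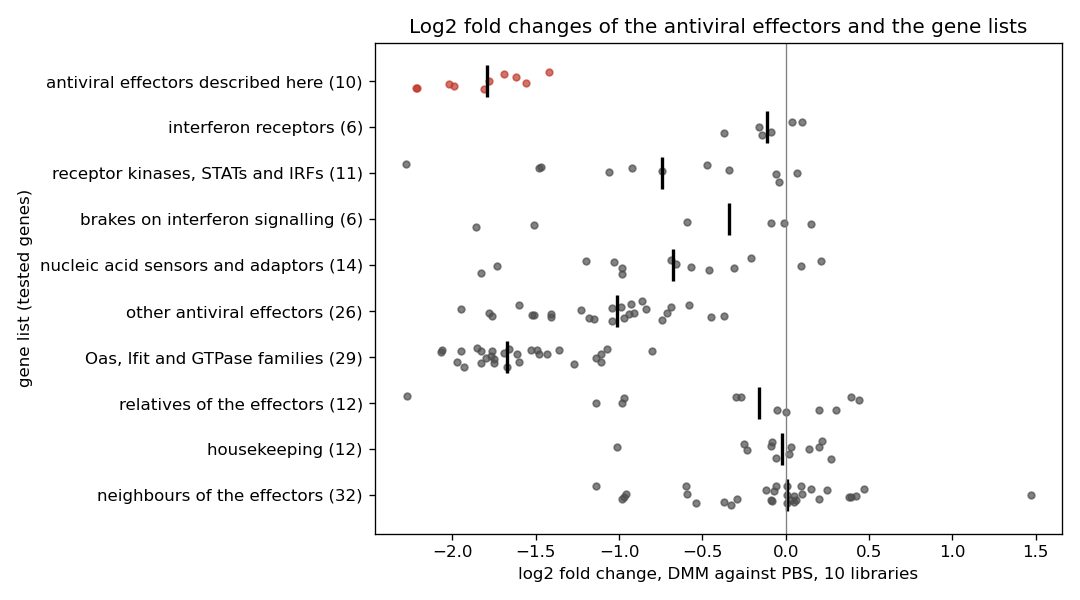
Log2 fold change of DMM against PBS over 10 libraries (horizontal axis) for each tested gene of the 10 effectors (red) and of the other lists (grey), with the number of tested genes in parentheses and a bar at the median. Receptors, neighbours and housekeeping genes center near 0, and the median is -1.80 for the effectors and -1.67 for the Oas, Ifit and GTPase families.

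Relatives of the effectors, other apolipoprotein L genes among them, were looked at with the same fit. Of 22 relatives, 12 were tested and 0 were called over 10 libraries. At an unadjusted p 2 were lower, Apol6 and Apol10b, beside 4.11% of all tested genes. Over the 8 libraries 3 were called lower, Apol6, Apol10b and Apol7e (adjusted p = 0.0319, 0.0308 and 0.0433, edgeR), beside 3.56% of all tested genes. DMM 1 was inside the PBS range for Apol10b and Apol7e, at 3.64 and 1.73 CPM, so that these calls follow in part from leaving it out. Apol6 was low, with a mean of 1.42 CPM in PBS and 0.289 CPM in DMM kidneys (log2 fold change -2.27 ± 0.65 SE, adjusted p = 0.378, edgeR), and Apol7c had a log2 fold change of -0.98 ± 0.46 (SE). The median over the 12 was -0.16. Of 12 housekeeping genes, 0 were called over 10 libraries and 1, B2m, was lower at an unadjusted p, with a log2 fold change of -1.01 ± 0.24 (SE). Over the 8 libraries B2m alone of the 12 was called, as lower (adjusted p = 0.00683, edgeR). DMM 1, at 1171 CPM of B2m, was inside the PBS range, so that this call follows in part from leaving it out. B2m encodes the light chain of MHC class I and is itself induced by interferon. Gusb and Hprt, the next by p, had log2 fold changes of -0.25 ± 0.12 and 0.20 ± 0.11 (SE).

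The genes with the pattern most like that of the effectors were found by the root mean square difference, over the 10 libraries, between centered log2 CPM and the mean centered log2 CPM of the 10 effectors. They were Oas1g (0.16), Dhx58 (0.19), Ifit3 (0.21), Oasl2 (0.22), Ifit3b (0.23), Oas1a (0.24), Tgtp2 (0.25) and Usp18 (0.25), beside a median of 1.62 over tested genes. Oas1g and Oas1a, and Ifit3 and Ifit3b, are close relatives whose reads may be shared. Oas1g was at 64.8, 37.3, 40, 54 and 47 CPM in PBS 1 to 5 and at 39.7, 7.94, 6.12, 2.6 and 6.5 CPM in DMM 1 to 5. Among the effectors, Mx1 was nearest to their own mean (0.23) and Rsad2 (0.81), Mx2 (0.88) and Apol9b (0.93) were farthest.

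Whole kidney tissue was sequenced, so that fewer cells of a type and less RNA per cell cannot be told apart. Summed CPM of 10 macrophage and monocyte markers was 1680, 1546, 1337, 1606 and 1814 in PBS 1 to 5 and 1450, 1058, 865, 849 and 891 in DMM 1 to 5. As with the effectors, DMM 1 was inside the PBS range and the other DMM libraries were below it. The sum in DMM 2, 3, 4 and 5 was 57.4% of the PBS mean, against 6% (Apol9a) to 22.3% (Rsad2) for the effectors. The effectors were chosen for large falls in these libraries, so that this gap follows at least in part from the choice. It is not a test of cell composition. The most abundant of the macrophage and monocyte markers was C1qb, at 263 to 394 CPM in PBS libraries, 292 CPM in DMM 1 and 49.4 to 181 CPM in the other DMM libraries. At an unadjusted p, 6 of the 10 markers were lower, beside 4.11% of all tested genes. Summed CPM of 4 general leukocyte markers, led by Laptm5, was 616, 561, 522, 602 and 664 in PBS 1 to 5 and 547, 397, 289, 431 and 293 in DMM 1 to 5, and 2 of the 4 were lower at an unadjusted p. Summed CPM of 7 T cell markers, led by Cd4, was 54.3, 56, 53, 46.9 and 79.2 in PBS 1 to 5 and 50.3, 42.6, 17.7, 21.6 and 22.8 in DMM 1 to 5, and 5 of the 7 were lower at an unadjusted p. None of the macrophage, leukocyte and T cell markers was at 0 in any library. Plasmacytoid dendritic cells are a major source of type I interferon, and the sum of their 5 markers, led by Spib, was 16.4, 16.8, 13.4, 14.8 and 18.1 CPM in PBS 1 to 5 and 14.7, 16.3, 4.76, 14.6 and 6.99 CPM in DMM 1 to 5, with Cox6a2 at 0 in at least 1 library and 1 of the 4 tested lower at an unadjusted p.

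Tubular and blood markers also varied between libraries. The sum of 7 proximal tubule markers, led by Lrp2, was 1604, 1598, 3935, 664 and 1193 CPM in PBS 1 to 5 and 1127, 3081, 3841, 3964 and 4395 CPM in DMM 1 to 5. PBS 3 was within the range of DMM 2, 3, 4 and 5 in these markers and above those libraries in the effectors. It was inside the range of the other PBS libraries for 6 of the 10 effectors and the lowest PBS library for the rest. DMM 1 was within the PBS range in the markers and in the effectors. At an unadjusted p, 2 of the 7 proximal tubule markers were higher in DMM kidneys, beside 1.91% of all tested genes. The sum of 5 erythroid markers, led by Hbb-bs, was 136, 228, 230, 157 and 152 CPM in PBS 1 to 5 and 288, 216, 593, 788 and 276 CPM in DMM 1 to 5, and 5 of the 5 were higher at an unadjusted p. Summed markers of PBS and DMM libraries overlapped for loop, distal and collecting duct (7 markers led by Umod, 1709 to 5208 CPM, 147% of the PBS mean in DMM 2, 3, 4 and 5). By the same measures they overlapped for podocytes (4 led by Podxl, 582 to 914 CPM, 102%), endothelium (5 led by Pecam1, 485 to 753 CPM, 98.6%), and fibroblasts and pericytes (7 led by Col3a1, 2858 to 11064 CPM, 59.6%). They also overlapped for NK cells (5 led by Gzma, 2.96 to 9.41 CPM, Klra8 at 0 in at least 1 library, 68.9% of the PBS mean in DMM 2, 3, 4 and 5, and 1 of the 4 tested lower at an unadjusted p) and neutrophils (5 led by Csf3r, 18.2 to 115 CPM, Retnlg at 0 in at least 1 library). The part of cell composition in the values of the effectors was not tested.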

How the data were processed

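Bulk RNA-seq of UUO kidneys from 5 PBS-treated and 5 DMM-treated mice was analysed, each mouse giving 1 library. The authors aligned reads to mm10 (HISAT2 2.0.5 is named in the submitters' processing notes) and deposited raw counts per gene. The counting tool, annotation release and strand setting are not given in the sources used here. The authors also deposited FPKM, used here for levels per length, and a signal per group, the mean of counts scaled by size factors, used only to see which libraries enter it. The authors' fold changes and p-values were not used, and 0 columns of per-sample values were left out.

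Counts were filtered with filterByExpr, scaled by TMM and tested with edgeR 4.0.16 (R 4.3.3), with Benjamini-Hochberg adjustment over all genes tested, and the steps were tested on simulated data. Total counts were 15722527 to 19475833 per library. The lists and effectors were chosen with earlier results of these data known. Named genes were the 10 effectors, the 3 genes of smallest p in each list and among the neighbours, all receptors, the ligands, the 8 nearest patterns and the most abundant gene of each marker list. Xiap, Apol7e and Tmem221 were named after their values were seen. Alternatives were DESeq2 1.42.0, RLE size factors, library size alone, no filter, at least 10 counts in 5 samples, a block for the replicate number, leaving out each library, the 8 libraries with a weight in the deposited means, FPKM ratios and a promoter window of 250 bases. DESeq2 and leaving out a library over the 8 libraries were added after seeing the data. The list names Cgas, Rigi, Sting1 and Shfl were not matched in the table, though Mb21d1, Ddx58 and Tmem173 stand for the first 3. Values of 2 genes and of a marker list are not reported here, though the counts over lists and over all genes include them.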

Additional observations from a re-analysis of the deposited data

Results flagged for a closer look

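In each group of 5 libraries the gap between the highest or lowest library and its nearest neighbour was divided by the range of the group and compared with Dixon's critical value, over 72 groups. Chance flags about 1 in 20 groups. For the effectors this describes the counts by which they were chosen, and the genes vary together, so that many flags repeat a single library and are not separate tests. In the DMM group DMM 1 was a far higher library for 9 of the 10 effectors, at 78.8 CPM for Mx1, 38.1 for Mx2, 179 for Cmpk2, 365 for Bst2, 141 for Rtp4, 190 for Ifi44, 96.7 for Xaf1, 14.7 for Apol9a and 23.6 CPM for Apol9b. Rsad2 was the exception, as DMM 4 at 110 CPM lay between DMM 1 and the other DMM libraries. DMM 1 was also far above the other DMM libraries for Irf7 at 488 CPM, Irf9 at 163, Usp18 at 105, Mb21d1 at 12.3, Tmem173 at 62.2, Lgals3bp at 708, Mov10 at 68.8, Gbp2 at 237, Irgm2 at 278 and Irgm1 at 442 CPM. In the PBS group Ifnar1 was flagged as lower in PBS 3, at 123 CPM against 140 to 146 CPM in the other libraries, which is a narrow range. The flags do not cover every gene named here. Among others, Hprt and Xiap stood apart in DMM 4, at 126 and 331 CPM, and B2m in DMM 1, at 1171 CPM. The cause of the values in DMM 1 and DMM 4 was not tested.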

How the results depend on the processing

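The log2 fold change of each of the 10 effectors was negative under all 19 alternatives, in 190 of 190 values between -4.40 and -1.23, and 44 of these moved by more than the SD between PBS libraries. Over 10 libraries edgeR called 0 genes lower and 0 higher, and the count was also 0 in both directions with RLE size factors, library size alone, no filter and at least 10 counts in 5 samples. DESeq2 called 36 lower and 14 higher, with 3 genes of the interferon pathway lists lower. Over the 8 libraries edgeR called 590 lower and 452 higher, with 10 effectors, 68 of 92 pathway genes and 2 of 32 neighbours lower. Leaving out each library in turn gave 0 to 436 genes lower, 0 to 50 higher, 0 to 10 effectors, 0 to 66 pathway genes and 0 to 1 neighbour lower. The upper value came from leaving out DMM 1 each time, and it was 0 without any other library. Within the 8 libraries, leaving out a further library gave 276 (without PBS 5) to 1281 (without DMM 4) genes lower and 131 (without PBS 5) to 1129 (without DMM 4) higher, and DESeq2 gave 911 lower and 749 higher. Libraries of the same replicate number shared only a number, with correlations of -0.06, 0.079, 0.341, 0.124 and -0.223 between their deviations, and only replicate 2 correlated best with its own number. With the replicate number as a block, 0 genes were called lower and 0 higher over 10 libraries, and 0 and 0 over the 8, and the median log2 fold change of the effectors was -2.45 and -3.01 (-1.80 and -2.99 without the block). At an unadjusted p, 10 effectors were lower over 10 libraries, 9 with DESeq2 and without DMM 5, PBS 1, PBS 3, PBS 4 or PBS 5, and 7 without DMM 2 or without DMM 3. The sign of 3 receptor genes near 0 changed. Ifnar1 was at -0.01 with library size alone, and between -0.11 (without DMM 4) and 0.18 (without DMM 3) when a library was left out. Ifngr2 was at -0.02 over the 8 libraries, -0.06 with the block over them, -0.00 with the block over 10 libraries and -0.06 with library size alone, and between -0.15 (without DMM 4) and 0.12 (without DMM 2) when a library was left out. Ifnlr1 was between -0.20 (without PBS 4) and 0.02 (without PBS 1), and at 0.01 without DMM 4. The 250 bases before the start alone gave the same numbers of effectors with each motif. The cause of these changes was not tested. Counts of 1 to 5 in DMM 4 limit the values of Mx2, Apol9a and Apol9b.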
